A study of Arabidopsis thaliana with 6 samples.

Results

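Aux/IAA proteins and auxin-conjugating GH3 enzymes are the feedback arm of the auxin response, and their transcripts were compared between shoots of the Arabidopsis thaliana mutant los2-5 and of the wild type Col-0. The genes were chosen by locus identifier from a list of the families: 24 Aux/IAA genes between IAA1 and IAA30 and 6 GH3 genes, 30 of the 37051 loci in the deposited count table, all of them present there. The label los2-5 names an allele of LOS2, a gene for the glycolytic enzyme enolase, and the series title links this enzyme to plant immunity. Each genotype had 3 libraries of 3' RNA-seq, an assay that counts reads from the ends of transcripts. Both genotypes were whole shoots from soil at 2 weeks of age under constant light at 22 °C, after 2 cold days at 4 °C for the seeds. A library pooled 3 plants, and replicates came from separate pots. Where the los2-5 lesion lies in the gene was not given by the labels.

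Library totals ran from 4400433 to 4537653 counts in los2-5 and from 3563033 to 4598645 counts in Col-0. LOS2 itself had 120, 115 and 123 CPM (counts relative to library sizes scaled by the TMM method) in los2-5 and 110, 124 and 106 CPM in Col-0. These ranges overlapped. Since the place of the lesion was not given, these levels do not check the genotype. Shoot identity was checked with 7 photosynthesis genes, whose summed level was 22556 to 23535 CPM in los2-5 and 31638 to 33544 CPM in Col-0. Of these 7 genes, 5 fell in los2-5 (71.4%, against 10.6% of all genes tested) and 2 were not called by the test described below. The 8 root markers summed to 50.1 to 72.4 CPM in los2-5 and 58.1 to 70.6 CPM in Col-0, nearly all from PYK10, and RHD6 had 0 counts. All 6 flower markers together stayed between 0.87 and 2.81 CPM in los2-5 and between 1.72 and 4.43 CPM in Col-0. Seed markers gave 1 count in los2-5 and 0 counts in Col-0. Whether the lower photosynthesis markers share in the results on auxin genes was not tested.

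Auxin promotes the binding of Aux/IAA proteins to F-box receptors of the TIR1/AFB family, which sends them to destruction. Aux/IAA proteins otherwise hold ARF transcription factors in check together with the co-repressor TOPLESS, and many Aux/IAA genes are themselves switched on by ARFs, which makes them early reporters of the response. GH3 enzymes of the auxin-conjugating group join indole-3-acetic acid to amino acids and so lower free auxin. In shoots these genes act in leaf growth, vascular patterning and the elongation response to light and shade.

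The element that ties Aux/IAA proteins to auxin is the degron of domain II, built around the residues glycine, tryptophan, proline and proline. A search of the longest coding sequence of each gene in the RefSeq annotation of TAIR10.1 found these 4 residues in 22 of the 24 Aux/IAA genes, and not in IAA20 and IAA30. All 24 also encode leucines at alternating places of a 5-residue stretch, the form of the EAR motif that recruits TOPLESS. Such a stretch was accepted wherever it lay in the sequence, so a match need not be that motif. In the 22 genes the 12 bases of the core came in 13 spellings. The stretch of 13 codons around the core is shown for the 5 Aux/IAA genes that differed between the genotypes and for IAA4, IAA7 and IAA9, close relatives that were not called. Capitals mark the 12 bases of the core, written 5' to 3' on the coding strand.
IAA3: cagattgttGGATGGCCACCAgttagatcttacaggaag
IAA17: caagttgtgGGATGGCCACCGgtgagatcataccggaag
IAA29: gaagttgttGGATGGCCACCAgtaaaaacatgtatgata
IAA8: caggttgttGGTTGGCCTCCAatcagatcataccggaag
IAA2: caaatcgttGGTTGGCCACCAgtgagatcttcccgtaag
IAA4: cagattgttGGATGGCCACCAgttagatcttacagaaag
IAA7: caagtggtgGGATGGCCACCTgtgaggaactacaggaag
IAA9: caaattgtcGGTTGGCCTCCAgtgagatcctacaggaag
IAA3 and IAA29, which fell, spell the core as IAA4 does, which was not called, and IAA8, which fell, spells it as IAA9 does, which was not called. The TAIR10.1 coordinates of these stretches, each within 1 exon, are chr1:1129010-1129048 (minus strand) for IAA3, chr1:1136938-1136976 (plus strand) for IAA17, chr4:15583942-15583980 (plus strand) for IAA29, chr2:9637725-9637763 (plus strand) for IAA8, chr3:8181378-8181416 (minus strand) for IAA2, chr5:17550740-17550778 (plus strand) for IAA4, chr3:8195568-8195606 (plus strand) for IAA7 and chr5:26255104-26255142 (plus strand) for IAA9.

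Of the 24 Aux/IAA genes, 18 had enough counts to be tested, and in los2-5 4 of them fell, 1 rose and 13 were not called. IAA29, IAA3, IAA17 and IAA8 were the genes that fell, by 4.86-fold, 1.97-fold, 1.88-fold and 1.41-fold, and IAA2 was 1.36-fold higher. Calls here and below are adjusted p-values of at most 0.05 from the quasi-likelihood test of edgeR, adjusted over all 13952 genes tested. Over all these genes 20.5% were called, with 9.92% higher and 10.6% lower in los2-5. Of the tested Aux/IAA genes 27.8% were called, 5.56% higher and 22.2% lower, a difference of few genes from that background. In 8 of these 18 genes (44.4%) all libraries of 1 genotype lay above all of the other, against 37.2% of all genes tested. Over the 20 tested Aux/IAA and GH3 genes the log2 fold change had a median of -0.09, against 0.02 over all genes tested, and the median absolute change was 0.41, against 0.31. IAA29 and IAA14 passed the filter of about 2.26 CPM through the Col-0 libraries, with 1 library of los2-5 above it. In whole shoots a lower level can mean fewer cells that express a gene or less RNA per cell, which cannot be told apart.

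**Figure D1:**
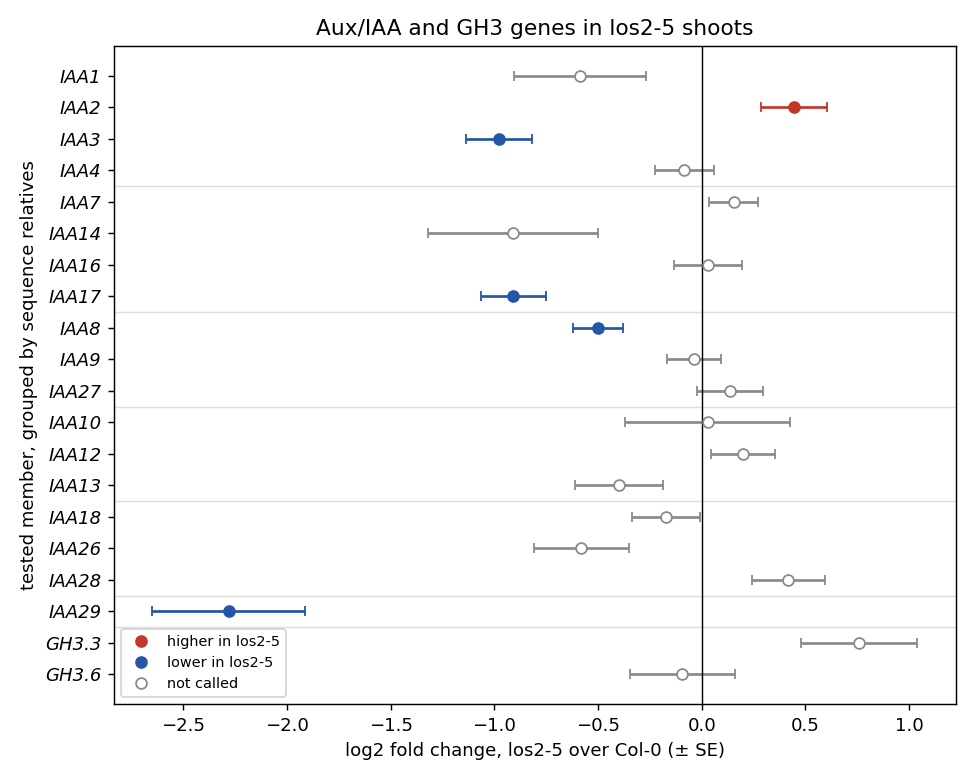
Log2 fold change of los2-5 over Col-0 (x axis, ± SE, 3 libraries each) for the 18 Aux/IAA and 2 GH3 genes tested, grouped by sequence relatives (y axis). Filled points passed the test: IAA29, IAA3, IAA17 and IAA8 lie left of 0 and IAA2 right of it, and open points were not called.

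IAA3 (AT1G04240), known as SHY2, encodes a repressor that takes part in light responses and in the exit of root cells from division. It had 23.7, 18.7 and 18.2 CPM in the los2-5 libraries, against 39.5, 39.6 and 40.5 CPM in the Col-0 libraries. The Col-0 libraries were nearly equal and every los2-5 library lay well under them. This is a log2 fold change of -0.98 ± 0.16 (SE; edgeR adjusted p = 1.3e-04). The annotated gene AT1G04230 overlaps IAA3 by 640 bases on the opposite strand, and it had 18 counts in los2-5 and 27 in Col-0 against 281 and 474 for IAA3.

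IAA17 (AT1G04250), known as AXR3 from dominant mutants that resist auxin, had 101, 68.1 and 79.5 CPM in los2-5, against 132, 188 and 148 CPM in Col-0. The genotypes did not overlap, although the libraries of each genotype were spread more widely than for IAA3. The fitted change was -0.91 ± 0.16 on the log2 scale (SE; edgeR adjusted p = 2.9e-04). IAA17 supplied 8.74% ± 1.41 of all Aux/IAA counts in los2-5 and 14.5% ± 2.60 in Col-0 (SD, n = 3).

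IAA29 (AT4G32280), a gene induced by phytochrome-interacting factors in shade and warmth, had 2.37, 1.93 and 0.65 CPM in los2-5, against 11.2, 5.90 and 7.69 CPM in Col-0. These are 11, 9 and 3 counts in los2-5 and 38, 24 and 34 counts in Col-0. The lowest Col-0 library was above the highest los2-5 library, and edgeR gave -2.28 ± 0.37 on the log2 scale (SE; adjusted p = 1.3e-04).

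IAA8 (AT2G22670), one of the long Aux/IAA proteins with 338 codons, was at 115, 112 and 114 CPM in los2-5, against 171, 157 and 155 CPM in Col-0. Both genotypes were tight and apart. On the log2 scale the change was -0.50 ± 0.12 (SE; edgeR adjusted p = 0.0045). The calls of IAA3, IAA17, IAA29 and IAA8 held under all 13 alternatives, with adjusted p-values of at most 0.025.

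IAA2 (AT3G23030), an early auxin-induced gene whose promoter is used as an auxin reporter, was the single member that rose. It had 40.6, 42.8 and 38.9 CPM in los2-5, against 26.6, 36.4 and 26.7 CPM in Col-0, with Col-0 replicate 2 closest to los2-5. In edgeR this was 0.45 ± 0.16 on the log2 scale (SE; adjusted p = 0.048). This call is at the edge of the threshold: over the 13 alternatives the adjusted p ran from 0.013 to 0.23, and 8 of them did not call the gene. DESeq2 gave 0.11. Leaving out los2-5 replicates 1, 2 and 3 in turn gave 0.076, 0.12 and 0.063. With Col-0 replicate 1 or 3 left out the values were 0.19 and 0.23.

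**Figure D2:**
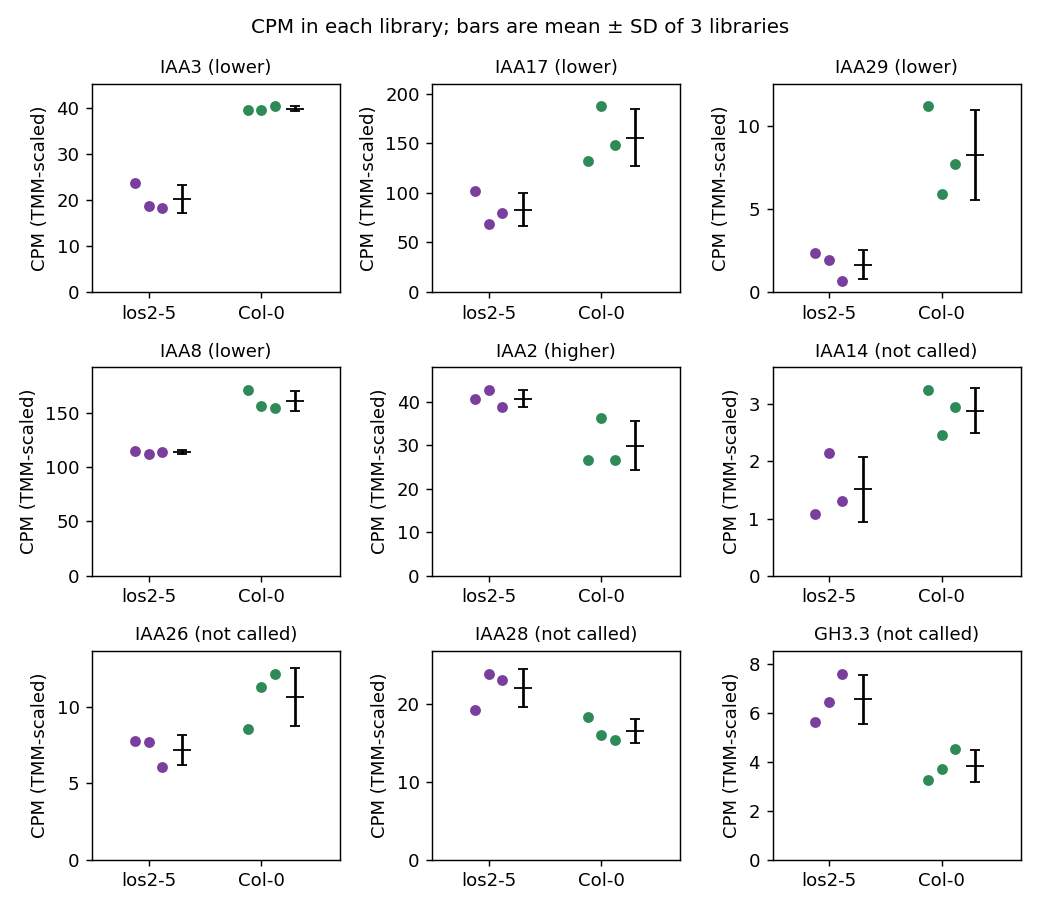
CPM (y axis, each panel from 0) in the 3 los2-5 and 3 Col-0 libraries, with mean ± SD beside them, for the 5 Aux/IAA genes called and for IAA14, IAA26, IAA28 and GH3.3, which were not. These 9 are the tested members in which the genotypes do not overlap (45% of the 20 tested, against 37.2% of all genes tested).

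A further 4 members had an unadjusted p of at most 0.05 and did not pass the adjustment. The share of all genes tested at this unadjusted p was not counted, so the 4 are described only. IAA28, whose stabilised form blocks lateral root formation, had 19.2, 23.8 and 23.0 CPM in los2-5 and 18.3, 16 and 15.4 CPM in Col-0. The change was 0.42 ± 0.18 on the log2 scale (SE; edgeR adjusted p = 0.095), and this p was 0.031 when libraries were scaled by their totals alone. IAA26, which encodes a phytochrome-associated protein, had 7.77, 7.73 and 6.08 CPM in los2-5 and 8.56, 11.3 and 12.2 CPM in Col-0, a log2 fold change of -0.58 ± 0.23 (SE; adjusted p = 0.074, edgeR). IAA14, the SOLITARY-ROOT gene, had 1.08, 2.15 and 1.3 CPM in los2-5 and 3.25, 2.46 and 2.94 CPM in Col-0 (-0.91 ± 0.41; adjusted p = 0.12, edgeR). The genotypes were apart in these 3 genes, as in 37.2% of all genes tested. GH3.3, the fourth, is described with its family.

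The other Aux/IAA genes tested had log2 fold changes between -0.59 and 0.20. IAA9, with 289, 218 and 307 CPM in los2-5 and 291, 270 and 274 CPM in Col-0, was at -0.04 ± 0.13 (SE). IAA7, the AXR2 gene, was at 0.15 ± 0.12, IAA4 at -0.08 ± 0.14 and IAA16 at 0.03 ± 0.16. IAA12, the BODENLOS gene that acts in the embryo, was at 0.20 ± 0.16, and its relatives IAA13 and IAA10 at -0.40 ± 0.21 and 0.03 ± 0.40. IAA18 was at -0.17 ± 0.16 and IAA27, another phytochrome-associated protein, at 0.14 ± 0.16. IAA27 overlaps AT4G29070 by 41 bases on the opposite strand, and AT4G29070 had 418 counts in los2-5 and 441 in Col-0. The genes that overlap IAA9, IAA10 and IAA13 had 0 counts. IAA1 had 7.12, 3.01 and 3.04 CPM in los2-5 and 5.61, 6.14 and 7.91 CPM in Col-0, with los2-5 replicate 1 apart from the other los2-5 libraries. The IAA1 change of -0.59 ± 0.32 (SE, log2) was not called, and without los2-5 replicate 1 it was -1.12 with an adjusted p of 0.019.

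Another 6 Aux/IAA genes had too few counts to be tested. IAA5 had 5, 1 and 4 counts in los2-5 and 9, 9 and 12 counts in Col-0. On library sizes scaled by TMM the Col-0 level was 3.51 times the los2-5 level (exact 95% interval 1.67 to 8.04, counting error only). Without the filter the edgeR log2 fold change of IAA5 was -1.77 ± 0.54 (SE), with an adjusted p of 0.011. CYCA2;3, a cyclin gene that overlaps IAA5 by 48 bases on the opposite strand, had 25 counts in los2-5 and 16 in Col-0, and reads of the overlap cannot be told apart without the strand setting. IAA11 had 5 counts in los2-5 and 16 in Col-0, a Col-0 level 3.74 times that of los2-5 (1.31 to 13.1), and edgeR without the filter gave an adjusted p of 0.084. AT4G28650 overlaps IAA11 by 12 bases on the opposite strand and had 1 count in los2-5 and 2 in Col-0. IAA6, IAA19 and IAA30 had 7, 11 and 12 counts in los2-5 and 11, 12 and 11 in Col-0. IAA20 had 1 count in each genotype. The exact 95% intervals of these last 4 ratios all include 1, and at this depth a small difference was not detectable.

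Summed, the Aux/IAA genes had 980, 874 and 986 CPM in los2-5 and 1088, 1086 and 1047 CPM in Col-0. That gap rests on the scaling. Scaled by library size alone the sums were 1019, 924 and 1001 in los2-5 and 1035, 1030 and 1006 in Col-0, which overlap. The median log2 fold change of the 20 tested members likewise turned to 0.03 with library size alone, where the median of all genes was 0.14, and the distance between both medians stayed at -0.11.

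GH3 genes had few counts in both genotypes, with 65, 92 and 80 counts for the 6 genes together in los2-5 and 47, 50 and 75 in Col-0. Of the 6 genes 2 were tested and 0 were called by edgeR, by DESeq2 or by limma-voom. At an unadjusted p of at most 0.05 in edgeR 1 was higher, a threshold whose share over all genes was not counted. That gene was GH3.3, an auxin-induced conjugating enzyme. GH3.3 (AT2G23170) had 5.61, 6.45 and 7.60 CPM in los2-5, against 3.25, 3.69 and 4.52 CPM in Col-0, and every los2-5 library was above every Col-0 library. The fitted change was 0.76 ± 0.28 on the log2 scale (SE; edgeR adjusted p = 0.057). This p was 0.027 with library size alone and 0.049 without los2-5 replicate 1, within a range of 0.027 to 0.20 over the 13 alternatives. GH3.6, known as DFL1 from a dwarf with excess enzyme, had 5.61, 6.23 and 5.64 CPM in los2-5 and 6.20, 5.65 and 6.78 CPM in Col-0 (-0.09 ± 0.25). GH3.5 (WES1), which accepts salicylic acid as well as auxin, had 15 counts in los2-5 and 17 in Col-0. GH3.2 had 22 counts in los2-5 and 11 in Col-0. GH3.17, which prefers glutamate as the amino acid, had 27 counts in los2-5 and 22 in Col-0, and GH3.1 had 1 count in los2-5 and 2 in Col-0. The exact 95% intervals of these 4 ratios all include 1, and they cover counting error only.

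In the genome 6 of the Aux/IAA genes form 3 pairs of immediate neighbours in head-to-head orientation, with no protein-coding gene between them. IAA3 and IAA17 lie 6388 bases apart on chromosome 1, IAA2 and IAA7 12510 bases apart on chromosome 3, and IAA14 and IAA1 10732 bases apart on chromosome 4. IAA3 and IAA17 both fell. Their ratio within a library, which no scaling alters, was 0.23, 0.27 and 0.23 in los2-5 and 0.30, 0.21 and 0.27 in Col-0, and these ranges overlap. The ratio of IAA2 to IAA7 was 0.20, 0.21 and 0.18 in los2-5 and 0.13, 0.20 and 0.15 in Col-0, again with overlap. For IAA1 over IAA14, at low counts, the ratio ran from 1.40 to 6.60 in los2-5 and from 1.73 to 2.69 in Col-0.

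Genes that fell were also set against relatives by sequence that were not called, and these ratios separated the genotypes. IAA3 over IAA4 was 0.65, 0.55 and 0.50 in los2-5, against 1.10, 1.04 and 1.03 in Col-0. IAA17 over IAA7 was 0.50, 0.34 and 0.37 in los2-5, against 0.66, 1.05 and 0.84 in Col-0. IAA8 over IAA9 was 0.40, 0.51 and 0.37 in los2-5, against 0.59, 0.58 and 0.56 in Col-0. In each of these 3 pairs all los2-5 values lay below all Col-0 values, and no scaling of libraries alters these ratios. The pairs were picked after the fold changes were known, each with a gene that fell over a relative that was not called. Their separation largely follows from those calls and carries no test.

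**Figure D3:**
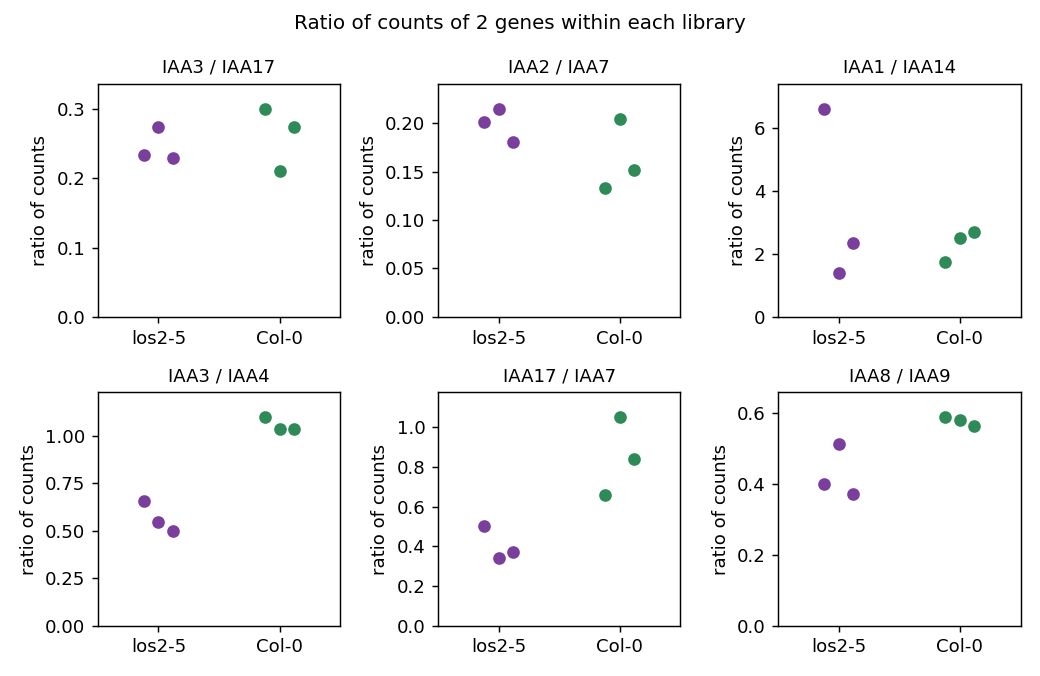
Ratio of the counts of 2 Aux/IAA genes within each library (y axis, from 0), for los2-5 and Col-0. The upper panels show neighbours in the genome, where the genotypes overlap. In the lower panels a gene that fell is divided by a relative by sequence that was not called. There the 3 los2-5 values lie below the 3 Col-0 values, in pairs picked after the fold changes were known.

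Auxin response elements, the letters TGTCTC or TGTCGG bound by ARF proteins, were searched on both strands in the 250 bases before the annotated start of each gene, together with the G-box CACGTG bound by phytochrome-interacting factors. TGTCTC was found in 10 of the 30 members and in 10.9% of 27443 protein-coding genes, TGTCGG in 6 and in 4.16%, and CACGTG in 5 and in 6.49%. Either auxin element was present in 14 of the 30, against 14.7% of all these genes, and no matches overlapped. Of the 5 members called 1, IAA8, held an auxin element in this window. It was held by 6 of the 15 tested members that were not called and by 7 of the 10 that were not tested. The windows of IAA8, IAA5, IAA19 and GH3.3 are shown because IAA8 is the called member with an element, IAA5 and IAA19 hold the most elements, and GH3.3 is the GH3 gene nearest to a call. Capitals mark the elements.
IAA8: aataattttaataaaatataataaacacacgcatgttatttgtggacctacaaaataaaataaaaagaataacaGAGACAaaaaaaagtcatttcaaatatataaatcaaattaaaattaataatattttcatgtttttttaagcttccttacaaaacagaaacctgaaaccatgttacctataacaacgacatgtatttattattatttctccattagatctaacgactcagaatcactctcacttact
IAA5: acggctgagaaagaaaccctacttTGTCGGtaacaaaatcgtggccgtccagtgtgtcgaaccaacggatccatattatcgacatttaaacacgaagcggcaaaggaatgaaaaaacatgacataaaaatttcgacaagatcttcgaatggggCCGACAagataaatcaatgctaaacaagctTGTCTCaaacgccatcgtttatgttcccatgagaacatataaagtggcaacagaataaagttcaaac
IAA19: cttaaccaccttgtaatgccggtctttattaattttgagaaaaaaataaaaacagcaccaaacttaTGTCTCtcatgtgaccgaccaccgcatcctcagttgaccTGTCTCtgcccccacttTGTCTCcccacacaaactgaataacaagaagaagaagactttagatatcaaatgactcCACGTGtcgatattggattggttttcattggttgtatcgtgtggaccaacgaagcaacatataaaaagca
GH3.3: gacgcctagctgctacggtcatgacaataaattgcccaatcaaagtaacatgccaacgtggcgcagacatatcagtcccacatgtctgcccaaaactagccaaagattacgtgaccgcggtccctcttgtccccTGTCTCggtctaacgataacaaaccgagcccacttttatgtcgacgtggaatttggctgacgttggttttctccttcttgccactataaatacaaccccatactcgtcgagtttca
A match is a run of letters and not a site shown to be bound, and the windows of IAA2, IAA3, IAA17 and IAA29 held 0 of the 3 motifs. The windows depend on the annotated starts. The longest coding sequences of IAA2 and IAA3 place the degron core at codons 150 and 167, against 58 in IAA1 and 65 in IAA4. Sequence outside the 250 bases was not searched, so elements elsewhere near these genes may have been missed. IAA19, with 3 copies of TGTCTC and a G-box, had between 1 and 7 counts per library. The windows, taken from the TAIR10.1 genome, are chr2:9636096-9636345 (plus strand) for IAA8, chr1:5366498-5366747 (minus strand) for IAA5, chr3:5263751-5264000 (plus strand) for IAA19 and chr2:9866563-9866812 (minus strand) for GH3.3.

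The rest of the auxin pathway was followed in lists of 77 genes, of which 47 were tested, 6 fell and 2 rose. These are 12.8% lower and 4.26% higher, 17% called in all, against 10.6% lower, 9.92% higher and 20.5% called over all genes tested, so the lists as a whole did not exceed the background share of calls. Transport genes held most of the calls: 5 of the 11 tested fell (45.5%, against 10.6% of all genes tested) and the other 6 were not called. The lists were chosen with earlier results of these data known, so the difference between these shares was not tested. AUX1, the main auxin influx carrier, had 38.4, 24.9 and 28.2 CPM in los2-5, against 59.6, 52.3 and 66.9 CPM in Col-0. Every los2-5 library was below every Col-0 library, and the log2 fold change was -0.97 ± 0.16 (SE, adjusted p = 2.1e-04, edgeR). The efflux genes ABCB19 and PIN7 fell by 0.72 ± 0.17 and 0.67 ± 0.17 on the log2 scale, and the influx genes LAX2 and LAX1 by 0.87 ± 0.23 and 0.47 ± 0.14. The calls of AUX1, ABCB19 and PIN7 held under all 13 alternatives. LAX2 was not called without los2-5 replicate 3 (adjusted p = 0.056) or Col-0 replicate 1 (0.077). LAX1 was not called without los2-5 replicate 2 (0.085), without Col-0 replicates 2 (0.080) and 3 (0.063), or with library size alone (0.077). PIN3, PIN4, LAX3, ABCB1 and the kinase gene PID had log2 fold changes between -0.22 and 0.09.

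**Figure D4:**
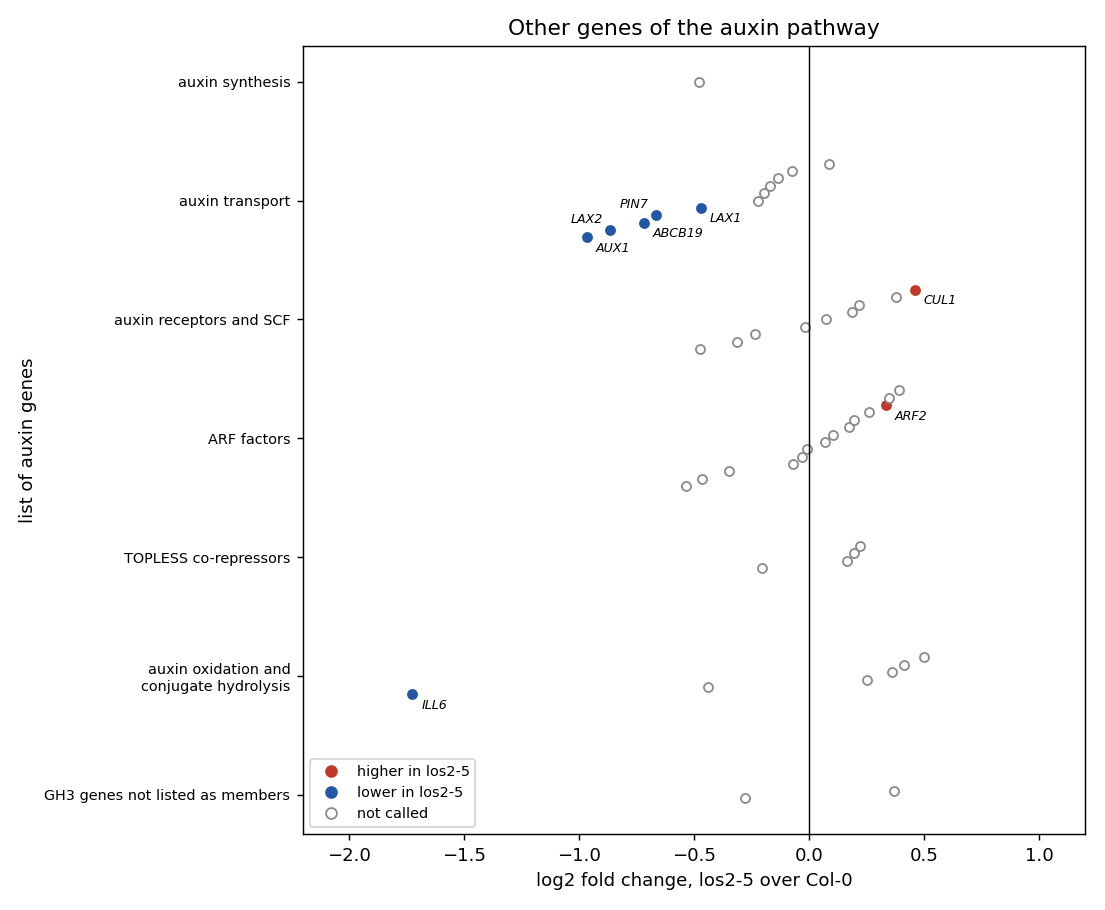
Log2 fold change of los2-5 over Col-0 (x axis) for the 47 tested genes of the auxin pathway that are not members, by list (y axis). Named filled points passed the test; 5 of them are transport genes to the left of 0.

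Among 9 receptor and SCF genes 1 rose (11.1%, against 9.92% of all genes tested) and the other 8 were not called. TIR1, the founding auxin receptor, had 38.0, 30.5 and 26.3 CPM in los2-5 and 41.6, 37.4 and 39.1 CPM in Col-0, a log2 fold change of -0.32 ± 0.16 (SE) with an adjusted p of 0.16 in edgeR. Without los2-5 replicate 1, the highest los2-5 library, this adjusted p was 0.047. CUL1, the scaffold of the SCF ligase, rose by 0.46 ± 0.15 (adjusted p = 0.030, edgeR). Its adjusted p was 0.067 in DESeq2, 0.12 without los2-5 replicate 2, and 0.086, 0.068 and 0.12 without Col-0 replicates 1, 2 and 3. Of 14 ARF genes tested 1 rose (7.14%, against 9.92% of all genes tested) and the other 13 were not called. That gene was ARF2, a repressor of the family, with a log2 fold change of 0.33 ± 0.11 and an adjusted p of 0.044. It was above 0.05 when any of the 6 libraries was left out, with 0.050 without los2-5 replicate 1 and 0.19 without Col-0 replicate 1 as the extremes. All 4 tested TOPLESS-related genes were between -0.21 and 0.22 and were not called.

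Auxin synthesis was hardly covered, with 1 of 13 genes tested (TAR2, -0.48 ± 0.33, not called) and 94 counts in los2-5 and 104 in Col-0 for the whole list. Among 6 tested genes of auxin oxidation and conjugate hydrolysis 1 fell (16.7%, against 10.6% of all genes tested). That gene was ILL6, whose enzyme also cleaves the jasmonate conjugate, with 2.37, 1.5 and 1.74 CPM in los2-5 and 7.67, 4.67 and 6.56 CPM in Col-0 (log2 fold change -1.72 ± 0.34, adjusted p = 8.2e-04, edgeR). ILL6 passed the filter through the Col-0 libraries, as IAA29 did. The 5 Aux/IAA genes that are not among the members, IAA15 and IAA31 to IAA34, had 5 counts in each genotype in all. Of 5 GH3 genes that are not among the members 2 were tested and 0 were called. JAR1, which makes the active jasmonate, was at -0.28 ± 0.16, and GH3.10 at 0.37 ± 0.16 (SE; edgeR adjusted p = 0.097). PBS3, the GH3 enzyme of salicylic acid synthesis, had too few counts to be tested, with 10, 12 and 15 in los2-5 and 2, 4 and 4 in Col-0, a scaled ratio of 3.16 (exact 95% interval 1.54 to 7.13, counting error only). Without the filter edgeR gave PBS3 a log2 fold change of 1.63 ± 0.52 (SE; adjusted p = 0.017).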

How the data were processed

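The authors deposited raw read counts per gene, 1 table for 37051 loci and 6 libraries, and no value was altered. STAR, edgeR and TAIR10 are named, without versions, in the submitters' processing notes. No source used here states the counting tool or its strand setting. Counts of overlapping genes and close relatives may therefore include shared reads. All 37051 identifiers matched locus tags of TAIR10.1 (RefSeq), the source of names, sequences and coordinates; the count table itself holds no coordinates. Genes were kept with filterByExpr (minimum count 10, total 15), scaled by TMM and tested with glmQLFit and glmQLFTest of edgeR 4.0.16 (R 4.3.3) on a design of genotype alone, with Benjamini-Hochberg adjustment over the 13952 genes kept. SE is the absolute log2 fold change over the square root of F, and CPM uses TMM-scaled totals. Totals of 3563033 to 4598645 counts limit genes under about 10 counts per library. Alternatives used DESeq2 1.42.0, limma 3.58.1, other scalings and filters, a replicate block, and each library left out. The procedure was tested on simulated data in which all genes shared the same variability, which does not check the calls of single genes here. The members and lists were chosen with earlier results of these data known. Every member is accounted for. Each tested member is given its fold change and, with an unadjusted p of at most 0.05, its libraries; from each pathway list up to 4 called genes with the smallest p were named, with TIR1, JAR1 and PBS3. LAX1, TAR2, GH3.10 and the genes given by range were named after their values were seen. A replicate was a pool of plants from its own pot.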

Additional observations from a re-analysis of the deposited data

How the results depend on the processing

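The counts of calls were recomputed under 13 alternatives. So were the fold changes of the tested members, the called pathway genes, TIR1 and JAR1. The number of Aux/IAA genes called lower was between 4 and 6, and where it exceeded 4 it gained IAA5, with IAA1 too without los2-5 replicate 1. The number called higher, 1 in the reported fit, was 0 with RLE scaling, 0 with a filter of at least 1 CPM on the mean, 0 with DESeq2 and 2 with library size alone, and 0 to 1 when a library was left out. GH3 genes called higher numbered 1 with library size alone and 0 to 1 with a library left out, against 0. Pathway genes called higher numbered 0 with DESeq2 and 0 to 2 with a library left out, against 2. All genes called numbered 1758 without Col-0 replicate 3, the lowest of a range up to 3143 when libraries were left out, against 2861. Library size alone shifted fold changes by a median of 0.12 on the log2 scale and made 68.8% of the calls higher (2179 higher, 989 lower), against 48.4% with TMM.

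Directions turned for members that were not called. With library size alone IAA4, IAA9 and GH3.6 were at 0.037, 0.082 and 0.028. Leaving out single libraries took IAA9 between -0.13 and 0.098, IAA10 between -0.17 and 0.21 and IAA16 between -0.087 and 0.157. The cause of these changes was not tested. The fit with the replicate number as a block called 3115 genes, 4 Aux/IAA genes lower, 1 higher and 0 GH3 genes, and it changed no call among the members. Deviations of libraries with the same number correlated at 0.05, -0.0007 and -0.05, so the numbers are not taken as pairs. The 10 members that were not tested had 0 to 17 counts per library, a depth at which small changes were not detectable.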
